A study of Mus musculus with 8 samples.

Results

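Sox2 encodes an HMG-box transcription factor that, with Oct4 (the product of Pou5f1) and Nanog, holds embryonic stem cells in the pluripotent state. Its coding sequence has no introns, and it lies inside the longer noncoding gene Sox2ot. In mouse embryonic stem cells its transcription depends on a cluster of enhancers far downstream, known as the Sox2 control region, which lies close to the promoter in the nucleus. Acetylation of lysine 27 of histone H3 (H3K27ac) marks active promoters and enhancers. HiChIP ligates DNA ends that are near each other in the nucleus and enriches the fragments that carry the mark, so a read pair reports a contact of at least 1 acetylated site.

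The contacts described here were those of the Sox2 promoter and of the region downstream of it, on GRCm38 (mm10). All loops with an end within 5 kb of the Sox2 start on chromosome 3 were taken, together with all loops whose 2 ends both lay in a window of 300 kb around the gene. A loop is a pair of anchors, and an anchor is a 5-kb bin or a run of touching bins. How the bins were merged is not given in the sources used here. The rule gave 41 loops of 415681 in the series. Of these, 38 touched the promoter anchor, 6 lay in the window and 3 did both.

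The 8 libraries came from 4 lines of mouse embryonic stem cells, each with 2 technical replicates. B6 was line B6 5-1 of strain C57BL/6J, and D2 was line D2 5-5 of strain DBA/2J. B6-13D2 was line QJ 6-1 of the congenic strain B6.D2-(rs30079041-rs51756099)/Bakr, with the B6 genome and an interval of chromosome 13 from D2. D2-13B6 was line XE 2-4, the reciprocal congenic, with strain D2.B6-(rs29224292-rs13469455)/Bakr in the sample labels; the series text gives rs51756099 for one end of that interval. All lines grew in serum with LIF and the inhibitors PD0325901 and CHIR99021, and no library had another treatment. Sox2 lies outside chromosome 13, so B6 and B6-13D2 carry the B6 form of the locus, and D2 and D2-13B6 the D2 form. These pairs are called the B6 background and the D2 background. Each genotype was 1 cell line, so the genotype and the line cannot be told apart, and p-values measure the spread between technical replicates.

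Library totals ran from 737955 to 1425304 counts, with 737955 to 952040 in the parental lines and 982278 to 1425304 in the congenic lines. Chromosome 3 held 4.22% to 4.53% of the counts of each library. In D2-13B6, chromosome 11 held 13.9% and 14.0% of all counts, against 10.1% to 10.6% in the other lines. For each marker gene 1 start was used, that of its coding transcript with the longest genomic span, and other starts were not looked at. Of 8 stem cell marker genes, 7 had an anchor within 5 kb of that start, with summed levels of 2832 to 3439 counts per 1000000 counts of the library (CPM). Esrrb had no anchor near the start used, chr12:86361117. Of the markers of other cells, 1 of 6 for primitive endoderm (4.42 to 12.6 CPM), 1 of 5 for trophoblast (8.11 to 14.3), 0 of 4 for mesoderm, 0 of 4 for neural cells and 3 of 5 for fibroblasts (47.9 to 84.2) had one. The fibroblast sum was 64.5 to 84.2 CPM in the D2 background and 47.9 to 76.7 in the B6 background, and its part in the results below was not tested.

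The window held 3 anchors. The promoter anchor, chr3:34645001-34675000, ran from 5.4 kb upstream to 24.6 kb downstream of the annotated Sox2 start at position 34650405, and also held starts of Sox2ot, Gm42693 and Gm27611. The middle anchor, chr3:34695001-34715000, began 44.6 kb downstream and held no annotated start. The distal anchor, chr3:34730001-34775000, lay 79.6 to 124.6 kb downstream and held the start of the noncoding gene Gm38509. The known control region lies inside the distal anchor.

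The promoter sequence and 3 stretches of the distal anchor are printed because the contacts described below join these places. The promoter is that of RefSeq (GRCm38.p6, chr3:34649745-34650044, plus strand), which begins 250 bases before a start that lies 410 bases upstream of the annotated start used for distances. Capitals mark ATGCAAA, the octamer letters read by POU factors such as Oct4, and ATTGG, which is CCAAT on the other strand.
Sox2 promoter: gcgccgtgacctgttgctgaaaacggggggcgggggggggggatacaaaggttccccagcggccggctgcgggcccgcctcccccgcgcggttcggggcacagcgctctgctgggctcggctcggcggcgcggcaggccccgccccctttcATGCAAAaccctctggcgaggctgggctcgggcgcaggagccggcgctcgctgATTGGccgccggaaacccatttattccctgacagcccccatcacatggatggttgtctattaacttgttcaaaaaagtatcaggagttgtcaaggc

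Of 32851 mouse promoters of the same length, 4.63% held ATGCAAA and 37.4% held CCAAT on either strand. The letters TCAAGGTCA (read by ESRRB), GGGNGTGGC (KLF factors) and CATTGTT (SOX factors) had no match in this window. A match in letters is a description and not a binding site.

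The following stretches of the minus strand of GRCm38.p6 hold TCAAGGTCA, in capitals, in the 2 bins of the distal anchor that contacted the promoter most. They lie at chr3:34756561-34756619, chr3:34757935-34757993 and chr3:34760549-34760607, which is 106.2, 107.6 and 110.2 kb downstream of the start.
Distal stretch at 106.2 kb: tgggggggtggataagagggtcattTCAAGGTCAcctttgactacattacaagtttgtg
Distal stretch at 107.6 kb: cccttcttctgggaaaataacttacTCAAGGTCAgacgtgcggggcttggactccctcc
Distal stretch at 110.2 kb: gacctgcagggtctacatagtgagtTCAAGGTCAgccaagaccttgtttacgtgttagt

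The match at 110.2 kb lay in sequence marked as a repeat in the genome file, and the other 2 did not. The distal anchor held 6 matches of these letters on either strand, in 4 of its 9 bins, and of all 54464 bins of 5 kb in the anchors of the series 14.9% held at least 1. ATGCAAA was in 3 of the 9 bins and in 65.6% of all, CATTGTT in 4 and 56.1%, and GGGNGTGGC in 3 and 24.2%. The joined letters CATTGT, 1 base, ATGCAAA, a form of the composite site of Sox2 with Oct4, were in 0.0312% of the bins and had no match in the distal anchor.

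The Sox2 promoter contacted the distal anchor more than any other place. Outside the promoter anchor itself, it had 2382 counts over 37 partners in all libraries, and 1485 of them, 62.3%, joined the distal anchor. The middle anchor took 21.0%. The partner after these, chr3:34015001-34045000, holds the start of Fxr1, which encodes an RNA-binding protein, 630 kb upstream, and took 4.49%. Within 0.5 Mb lay 86.3% of the outward counts. The distal anchor in turn had 2957 outward counts, of which 50.2% joined the promoter, 30.4% the middle anchor and 4.70% the Fxr1 anchor. Of the 1577 outward counts of the middle anchor, 57.0% joined the distal anchor and 31.8% the promoter.

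The loop from the promoter to the distal anchor was among the strongest of its length in the series. With 1485 counts it ranked 14 among 16955 loops that spanned 74 to 111 kb, and 51 among 389675 loops over 50 kb. In single libraries it ranked 14 to 21 among loops of that span. The anchors are wide, so the loop covers 54 pairs of bins. Per pair of bins it had 27.5 counts against a median of 4.60 for loops of that span, and ranked 71 over all libraries and 58 to 699 in single libraries, with the highest ranks in the 2 D2-13B6 libraries. Of 3609 anchors that hold a coding start and have at least 500 outward counts, the Sox2 promoter ranked 25 for the share of outward counts taken by its leading partner over 50 kb away, and the median of that share was 12.4%.

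At the scale of 5-kb bins, the contacts of the promoter peaked about 107 to 112 kb downstream. The 3 bins within 5 kb of the start had 214 counts with chr3:34755001-34760000, centred 107.1 kb downstream, and 175 with the next bin, centred at 112.1 kb. The other 7 bins of the distal anchor had 43 to 106 counts, and the 4 bins of the middle anchor 44 to 65. The bin at 107.1 kb was the highest in 5 of 8 libraries, the bin at 112.1 kb in 2 and the bin at 117.1 kb in 1, which was D2 replicate 1. The 3 bins centred between 100 and 115 kb took 42.5% to 60.0% of each library's counts between these start bins and the distal anchor. The leading bin had 17 to 50 counts in a library, which limits how far neighbouring bins can be ranked within one.

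Single pairs of bins stood high among pairs at the same distance. The bin just upstream of the start and the bin at 107.1 kb had 82 counts, and 4 of 9057 listed pairs at 110 kb had as many or more, where the median was 5. The same upstream bin and the bin at 112.1 kb had 93 counts, a level reached by 5 of 8935 pairs at 115 kb. The bin that holds the annotated start and the bin at 107.1 kb had 79, a level reached by 3 of 9071 pairs at 105 kb. The most frequent pair in the whole window lay inside the distal anchor, with 229 counts between the bins at 97.1 and 107.1 kb.

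Of the 41 loops, 9 passed the filter of at least 5 counts in at least 2 libraries. They were the 6 loops of the window and the promoter's loops to the Fxr1 anchor, to chr3:34880001-34895000 and to chr3:35715001-35735000. The other 32 had 1 to 18 counts over all libraries and were not tested. Levels of loops are given below in CPM of the tested loops, scaled with TMM factors, which correct library totals for a few strong features. A loop was called where edgeR's quasi-likelihood test, adjusted by Benjamini-Hochberg over all 44706 tested loops, gave a false discovery rate (FDR) under 0.05.

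Averaged over both chromosome 13 intervals, 5 of the 9 tested loops at Sox2 rose in the D2 background and 0 fell. Of all tested loops 8.85% were called in this comparison, and 4.30% were called higher in the D2 background. All 9 fold changes were positive, with a median of 0.60 on the log2 scale against 0.02 over all loops. On chromosome 3 as a whole, 88 of 1985 tested loops were higher and 86 lower, with a median of -0.01.

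The loop from the promoter to the distal anchor had 168.6 and 169.9 CPM in B6 and 170.7 and 194.6 in B6-13D2, against 221.2 and 225.4 in D2 and 244.4 and 283.4 in D2-13B6. The line means followed that order, and all 4 libraries of the D2 background lay above all 4 of the B6 background. The means were 243.6 ± 28.4 CPM (SD, n = 4) and 176.0 ± 12.5 CPM, a ratio of 1.38. The fitted log2 fold change was 0.46 with a standard error of 0.11 (edgeR's FDR = 0.000439). It stayed called in every alternative run, with 0.40 to 0.52 when single libraries were left out. In bulk libraries a contact in more cells and a more frequent contact per cell cannot be told apart.

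The loop from the promoter to the middle anchor was weaker and also rose. It had 52.4 and 35.9 CPM in B6 and 58.2 and 78.8 in its congenic B6-13D2, and 79.0 and 95.3 in D2 and 83.0 and 83.3 in its congenic D2-13B6. The backgrounds did not overlap, but only just, since B6-13D2 replicate 2 lay directly below D2 replicate 1. The log2 fold change was 0.60 with a standard error of 0.16 (edgeR's FDR = 0.00297). The call was lost without B6 replicate 2 (edgeR's FDR = 0.0564), without D2 replicate 2 (edgeR's FDR = 0.0541) and in DESeq2 (adjusted p = 0.0894).

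Contacts between the middle and distal anchors, which do not involve the promoter, rose too. They had 77.4 and 75.1 CPM in B6 and 117.5 and 116.8 in B6-13D2, against 142.2 and 136.5 in D2 and 152.5 and 185.1 in D2-13B6. The 4 lines did not overlap, and the replicates of B6, B6-13D2 and D2 differed by less than the gaps between lines. The log2 fold change between backgrounds was 0.70 with a standard error of 0.13 (edgeR's FDR = 2.73e-06).

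Contacts inside single anchors join bins at least 10 kb apart in 1 acetylated region. Inside the promoter anchor, levels were 54.9 and 88.2 CPM in B6 and 89.1 and 90.5 in its congenic B6-13D2, and 132.1 and 100 in D2 and 119.5 and 134.2 in its congenic D2-13B6, with no overlap between backgrounds and a log2 fold change of 0.62 (standard error 0.14, edgeR's FDR = 0.000198). Without B6 replicate 1, the lowest library, it was 0.44 and no longer called (edgeR's FDR = 0.0501). Inside the middle anchor, the log2 fold change was 0.75 with a standard error of 0.20 (edgeR's FDR = 0.00432), but the backgrounds overlapped, at 17.5 to 38.0 CPM in B6 and 34.5 to 69.9 in D2. D2 replicate 2 set the top of that range, and without it the value was 0.45 (edgeR's FDR = 0.302). The call was also lost without B6 replicate 1 (0.54, edgeR's FDR = 0.151), in DESeq2 (adjusted p = 0.168) and without the filter on low counts (edgeR's FDR = 0.0516).

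Inside the distal anchor the backgrounds did not differ past the threshold. Levels were 189.8 and 200.9 CPM in B6 and 226.4 and 264.3 in B6-13D2, against 215.4 and 242.9 in D2 and 305.9 and 301.8 in D2-13B6. The ranges of D2 and B6-13D2 overlapped, with D2 replicate 1 below both B6-13D2 libraries, and both D2-13B6 libraries stood above the other 6. The log2 fold change was 0.27 with a standard error of 0.10 (edgeR's FDR = 0.0808). With a scaling factor per chromosome it was 0.29 and was called (edgeR's FDR = 0.0467).

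**Figure D1:**
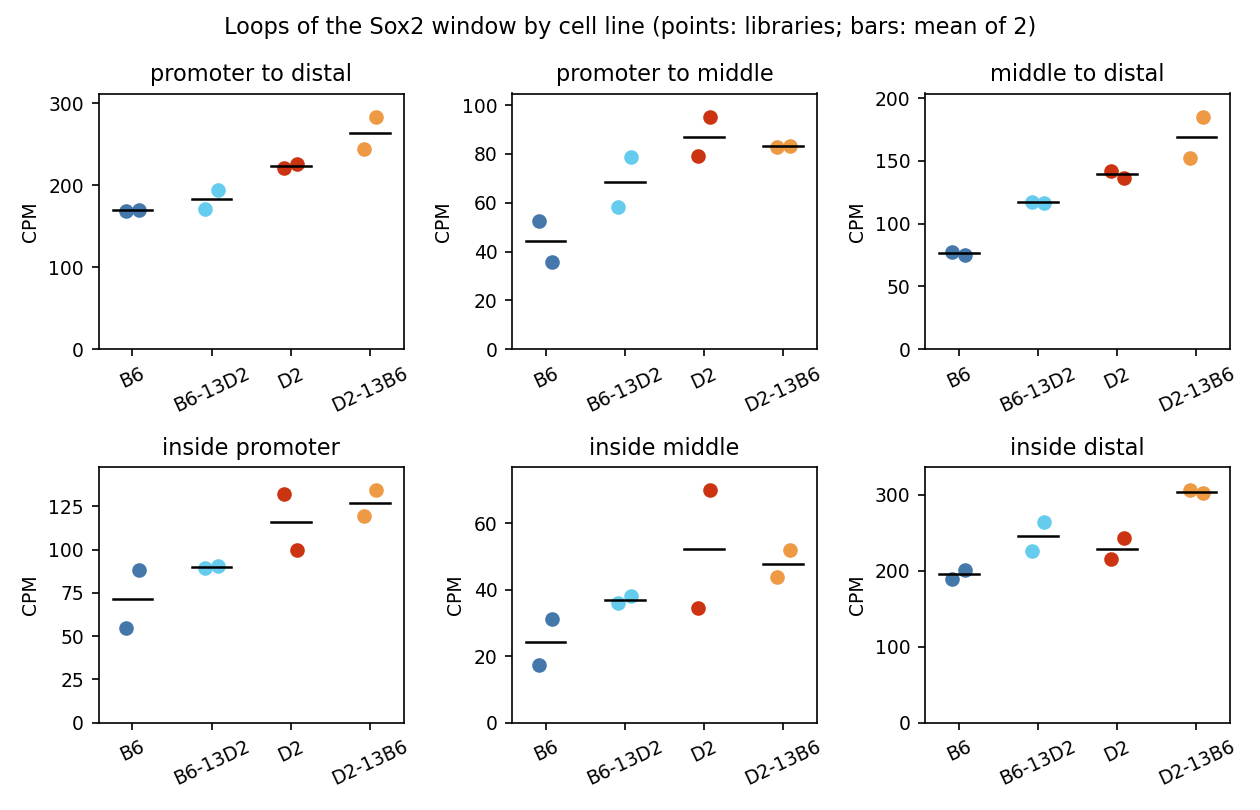
Level of each loop of the Sox2 window in CPM (vertical axes from 0) for the 4 lines, with points for libraries and bars for the mean of 2. In the loop from promoter to distal, the D2 and D2-13B6 points, at 221.2 CPM and above, all lie over the B6 and B6-13D2 points, at 194.6 CPM and below.

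The promoter's loops beyond the window were sparse. The loop to the Fxr1 anchor had 107 counts, with 10.9 to 13.7 CPM in the B6 background and 11.1 to 24.1 in the D2 background, and was not called (log2 fold change 0.53, standard error 0.30, edgeR's FDR = 0.317). That value was 0.24 without D2 replicate 1 and 0.35 without D2-13B6 replicate 1. The loop to chr3:34880001-34895000, which spans 227.5 kb, had 46 counts and a value of 0.15 (edgeR's FDR = 0.900). The loop to chr3:35715001-35735000, spanning 1065 kb, had 45 counts, with 2.48 to 6.34 CPM in the B6 background and 6.35 to 11.4 in the D2 background, and a value of 1.01 (standard error 0.48, edgeR's FDR = 0.197).

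The direct comparison of the 2 parental lines, D2 against B6, called 4 of the 9 loops, all higher in D2, where 2.65% of all tested loops were called. The loop between middle and distal had a log2 fold change of 0.87 (standard error 0.20, edgeR's FDR = 0.00151). That between promoter and middle had 0.94 (standard error 0.24, edgeR's FDR = 0.00836), the contacts inside the promoter 0.74 (edgeR's FDR = 0.0222) and those inside the middle anchor 1.13 (edgeR's FDR = 0.0196). The loop between promoter and middle lost its call without B6 replicate 2 (0.72, edgeR's FDR = 0.181) and without D2 replicate 2 (edgeR's FDR = 0.213). The contacts inside the promoter lost theirs without B6 replicate 1 (0.40, edgeR's FDR = 0.600) and without D2 replicate 1 (0.54, edgeR's FDR = 0.418). Those inside the middle anchor lost theirs without D2 replicate 2 (0.56, edgeR's FDR = 0.671) and without B6 replicate 1 (0.72, edgeR's FDR = 0.503). The loop from the promoter to the distal anchor had 0.40 with a standard error of 0.16 and was not called (edgeR's FDR = 0.190). Of all 44706 loops DESeq2 called 190 higher and 148 lower in this comparison, and it gave no adjusted p for 2 of the 9. DESeq2 called only the loop between middle and distal here, and the count was 2 without B6 replicate 1 or without D2 replicate 2.

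Each chromosome 13 interval also gives a comparison of backgrounds on its own. D2-13B6 against B6, which share the B6 interval, called 6 of the 9 loops, all higher in D2-13B6 (5.95% of all loops). They were the 6 loops of the window. DESeq2 called 4, and edgeR called 3 without D2-13B6 replicate 2. In this comparison DESeq2 called 497 of all 44706 loops higher and 301 lower, and gave no adjusted p for 3 of the 9. The comparison shares the B6 libraries with that of D2 against B6. D2 against B6-13D2, which share the D2 interval, called 0 in edgeR and 0 in DESeq2, with 1 at an unadjusted p under 0.05 (3.57% of all loops were called). DESeq2 gave no adjusted p for 2 of the 9 there. The loop from the promoter to the distal anchor had a log2 fold change of 0.64 (standard error 0.15, edgeR's FDR = 0.000687) in the first and 0.28 (standard error 0.15, edgeR's FDR = 0.392) in the second. The first value lost its call without D2-13B6 replicate 2 (edgeR's FDR = 0.111). The difference between these values, tested as the interaction, was -0.36 with a standard error of 0.21 and did not pass (edgeR's FDR = 0.654).

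The interval of chromosome 13, which sets each congenic line apart from its parent, called none of these loops. Averaged over both backgrounds, 0 of 9 loops were called by edgeR and 0 by DESeq2, with 1 at an unadjusted p under 0.05, and 0.986% of all loops were called. DESeq2 gave no adjusted p for 4 of the 9, and a loop without one could not be called. The loop from the promoter to the distal anchor had a log2 fold change of -0.06 with a standard error of 0.11 (D2 over B6 interval, edgeR's FDR = 0.909). B6-13D2 against B6 called 0 of 9 by edgeR, with 4 at an unadjusted p under 0.05, all higher in B6-13D2, and 0.859% of all loops were called. DESeq2 called 0 as well, but gave no adjusted p for 5 of the 9. D2 against D2-13B6 called 0 by both, with 1 lower in D2 at an unadjusted p under 0.05, and 0.922% of all loops were called. In that comparison too, DESeq2 gave no adjusted p for 5 of the 9.

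The interaction tests whether the interval effect differs between the backgrounds, and it called 1 of 9 loops, against 0.606% of all loops. It was the contacts inside the distal anchor, with -0.75 and a standard error of 0.20 (edgeR's FDR = 0.0395). The D2 interval went with more of these contacts in the B6 background, 245.4 ± 26.8 against 195.3 ± 7.86 CPM (SD, n = 2), and with fewer in the D2 background, 229.1 ± 19.4 against 303.9 ± 2.94. Library totals moved the same way, higher in both congenic lines than in both parental lines, and their part in this result was not tested. With library totals alone the value was -0.56 and not called (edgeR's FDR = 0.244), while that scaling moved the median interaction of all loops from -0.03 to 0.16, so relative to the median it stayed about the same. The call was lost with the replicate number as a block (-0.74, edgeR's FDR = 0.105). It was also lost with RLE factors (-0.72, edgeR's FDR = 0.0660) and when any single library other than B6-13D2 replicate 1 was left out (-0.62 at the least).

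**Figure D2:**
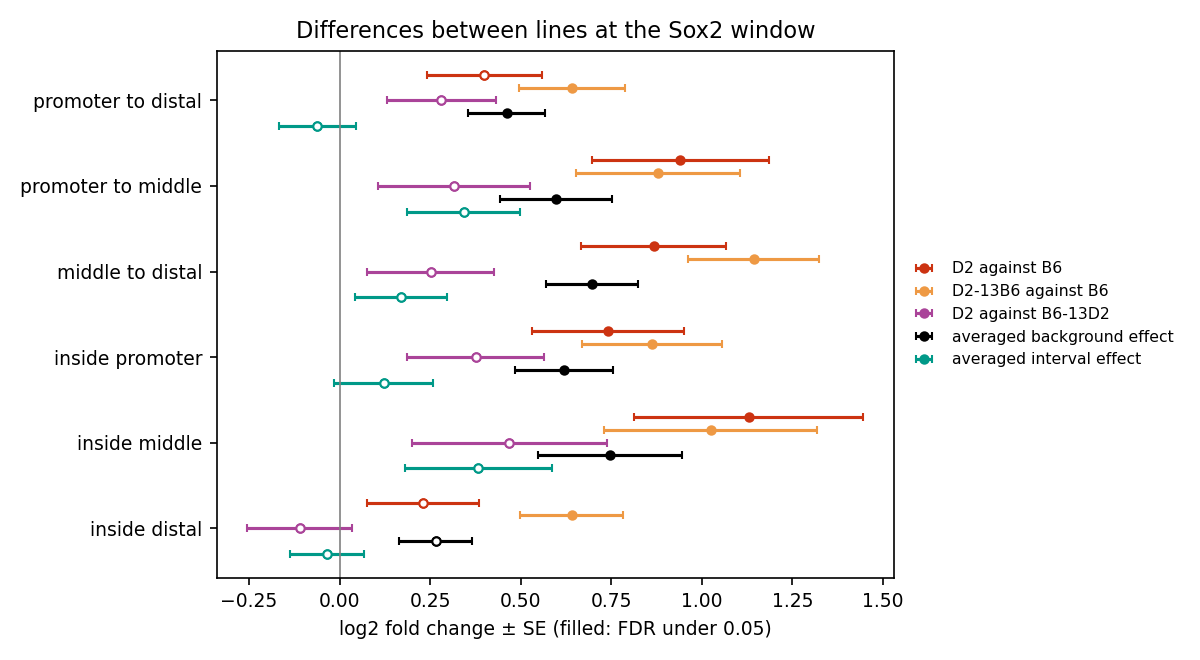
Log2 fold change with its standard error for the 6 loops of the window (horizontal axis) in 5 comparisons, with filled points for an FDR under 0.05. The averaged background effect is filled for 5 loops and open for the contacts inside the distal anchor, and the averaged interval effect is open for all 6.

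Summed over all loops that touch an anchor, the line means stood in the same order as for the loop from promoter to distal. At the distal anchor the libraries of D2 (315.9 and 331.9 CPM) and B6-13D2 (305.8 and 332.7) overlapped. The promoter anchor had 160.9 ± 2.24 CPM of anchor counts (SD, n = 2) in B6 and 202.3 ± 16.5 in B6-13D2, against 230.9 ± 10.8 in D2 and 274.0 ± 25.1 in D2-13B6. Between backgrounds its log2 fold change was 0.48 with a standard error of 0.08 (edgeR's FDR = 4.23e-06 over 21211 anchors). The middle anchor had 0.68 (edgeR's FDR = 1.48e-08) and the distal anchor 0.39 (edgeR's FDR = 5.77e-05). These sums are not separate results, since a loop between 2 of the anchors counts in both, and they hold the loops tested above. All 3 rose, where 24.8% of all anchors were called and 11.9% were called higher in the D2 background. Within the B6 interval, D2-13B6 against B6 called all 3 higher (of all anchors, 2234 higher and 1981 lower). Within the D2 interval, D2 against B6-13D2 called 0 of 3 in edgeR and 0 in DESeq2 (of all anchors in edgeR, 1267 higher and 1767 lower). Its values were 0.19 at the promoter (edgeR's FDR = 0.33), 0.27 at the middle anchor (edgeR's FDR = 0.17) and 0.02 at the distal anchor (edgeR's FDR = 0.95).

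In D2 against B6 all 3 anchors were higher in D2 (11.8% of anchors called), with 0.52 at the promoter (edgeR's FDR = 0.00199), 0.91 at the middle anchor (edgeR's FDR = 1.69e-06) and 0.38 at the distal anchor (edgeR's FDR = 0.0193). The call at the promoter was lost without D2 replicate 1 (edgeR's FDR = 0.0638), and that at the distal anchor without B6 replicate 1 or either D2 library (edgeR's FDR of up to 0.175). In B6-13D2 against B6 (5.27% called) the promoter, at 0.33, was not called (edgeR's FDR = 0.101), while the middle anchor, at 0.64 (edgeR's FDR = 0.00281), and the distal anchor, at 0.37 (edgeR's FDR = 0.0417), were higher in B6-13D2. In D2 against D2-13B6 (5.73% called), only the distal anchor was called, lower in D2 at -0.38 (edgeR's FDR = 0.0203), and the promoter had -0.25 (edgeR's FDR = 0.236). The averaged interval effect called 0 of 3 in edgeR and 0 in DESeq2, with 1 at an unadjusted p under 0.05 and 6.16% of anchors called. The interaction was negative and called at all 3 (4.83% of anchors called), with -0.58 at the promoter (edgeR's FDR = 0.0274). With library totals alone the promoter's value was -0.35 (edgeR's FDR = 0.184), with the replicate number as a block it was -0.57 (edgeR's FDR = 0.0657), and the call was also lost without D2 replicate 1 or 2, B6-13D2 replicate 2 or D2-13B6 replicate 2 (edgeR's FDR of up to 0.217). The middle anchor had -0.81 and the distal anchor -0.75, and the middle anchor lost its call with library totals alone (edgeR's FDR = 0.0531) and without D2 replicate 1 or D2-13B6 replicate 2.

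The next question was whether the distal anchor took a larger part of the promoter's contacts in one background. The share of the promoter's outward counts that joined the distal anchor was 62.2% and 67.1% in B6 and 59.7% and 60.1% in its congenic B6-13D2, and 59.2% and 61.5% in D2 and 62.8% and 65.4% in its congenic D2-13B6. The exact 95% intervals, which cover counting error only, were wide, from 59.1% to 74.4% in B6 replicate 2, for instance. Between backgrounds the mean shares were 62.2% ± 2.58 and 62.3% ± 3.40 (SD, n = 4), which differ by -0.043 points (p = 1 in an exact two-sided permutation test).

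By the chromosome 13 allele, the same shares separated. The 4 libraries with the D2 interval had 59.2% to 61.5%, a mean of 60.1% ± 0.96, and the 4 with the B6 interval 62.2% to 67.1%, a mean of 64.4% ± 2.27 (SD, n = 4). The difference of -4.26 points had p = 0.0286 by the exact permutation test, two-sided, the smallest value that 4 against 4 libraries allow, and 0.0571 after adjustment over the 4 comparisons of this kind. The test treats the 4 libraries of a side as independent, but they are technical replicates of 2 lines. The difference did not pass, and the counting intervals of single libraries overlapped. With so few libraries, even full separation could pass this adjustment only if most of the 4 comparisons reached the smallest p. With pairs of 5-kb bins in place of anchors the difference was -4.83 points (exact permutation p = 0.114).

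All counts inside the window, in CPM of the library total, came to 471.6 and 498.7 in B6 and 574.2 and 637.4 in B6-13D2, against 690.4 and 713.5 in D2 and 762.7 and 831.4 in D2-13B6. The backgrounds did not overlap, with means of 749.5 ± 62.4 and 545.5 ± 75.1 (SD, n = 4) and a ratio of 1.37. The exact permutation test gave p = 0.0286, two-sided, and 0.0571 after the same adjustment. The limit given above for the share holds here too. By chromosome 13 allele the ranges overlapped, and the difference was 12.7 CPM (exact permutation p = 0.914).

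By bins, 12 of 13 bins of the middle and distal anchors had higher mean CPM with the start bins in the D2 background, and 1 had lower. That bin, chr3:34745001-34750000, is centred 97.1 kb downstream and is one end of the brightest pair of the window. It had 11.1 to 16.3 CPM in the B6 background and 6.01 to 9.82 in the D2 background, a ratio of 0.595. The bin at 117.1 kb separated the other way, with 8.13 to 11.1 and 11.7 to 21.7. Both had p = 0.0286 by the exact permutation test, two-sided, and 0.186 after adjustment over the 13 bins. Since 0.0286 is the smallest p that 4 against 4 libraries allow, a single bin could not pass this adjustment. The 2 leading bins overlapped between backgrounds, with 13.2 to 28.5 and 20.5 to 32.6 CPM at 107.1 kb.

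**Figure D3:**
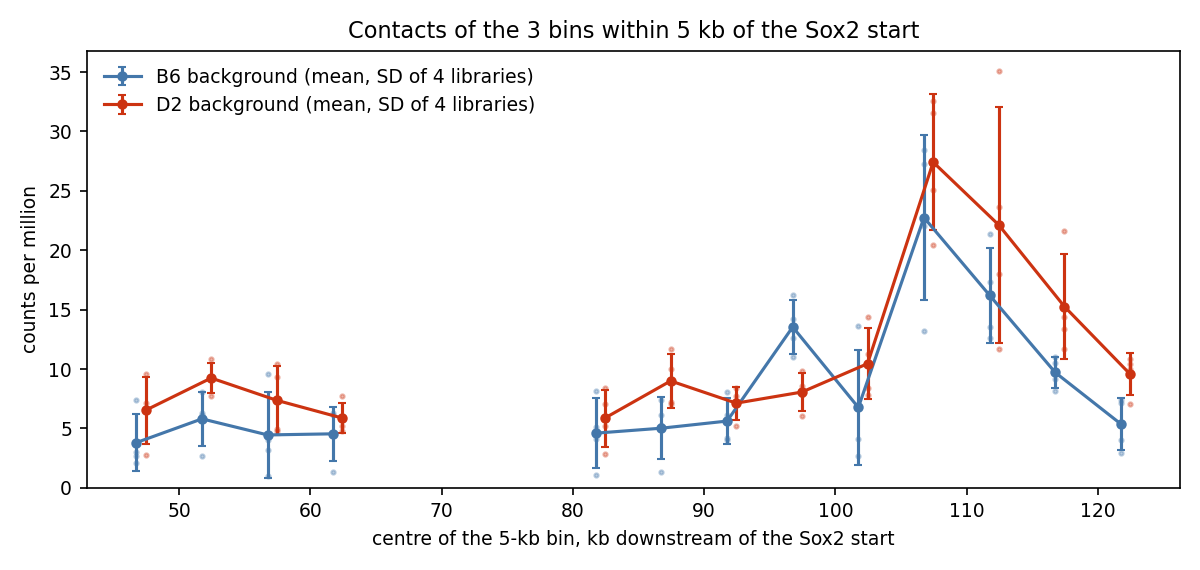
CPM of the library total between the 3 bins within 5 kb of the Sox2 start and each 5-kb bin of the middle and distal anchors (horizontal axis, distance of the bin's centre in kb), with lines for the mean and bars for the SD of 4 libraries per background and small points for libraries. Both backgrounds peak at 107 kb, and the bin at 97 kb is the only one where the B6 background has the higher mean.

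Sox2 was set beside other genes of the pluripotency network. Of 26 such genes, 24 had an anchor within 5 kb of their start, and Esrrb and Otx2 had none. Between backgrounds edgeR called 6 of the 24 higher in the D2 background and 2 lower, where 24.8% of all anchors were called and 11.9% called higher, with a median log2 fold change of 0.09 against 0.01 over all anchors. DESeq2 called 2 of the 24, Sox2 and Tbx3, so the other calls that follow are edgeR's alone. Of all 21211 anchors DESeq2 called 1127 higher and 1295 lower. Those that rose in edgeR included Sox2, Lefty1, Klf4, Tbx3 and Dppa5a. Lefty1, which encodes an inhibitor of Nodal signalling, had 0.40 (edgeR's FDR = 0.00216), and Klf4, a Krüppel-like factor used in reprogramming, had 0.39 (edgeR's FDR = 0.00872).

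The T-box factor Tbx3 had 0.32 (edgeR's FDR = 0.00242) and Dppa5a, a marker of early embryonic cells, 0.22 (edgeR's FDR = 0.0306). Those that fell were the nuclear receptor gene Nr5a2, at -0.37 (edgeR's FDR = 0.0472), and Lin28a, an inhibitor of let-7 processing, at -0.34 (edgeR's FDR = 0.0290). The 2 partners of Sox2 in the core of the network were not called. Pou5f1 had -0.03 with a standard error of 0.08 (edgeR's FDR = 0.833) and Nanog 0.16 with a standard error of 0.08 (edgeR's FDR = 0.106). That Sox2 differs from them was not tested.

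**Figure D4:**
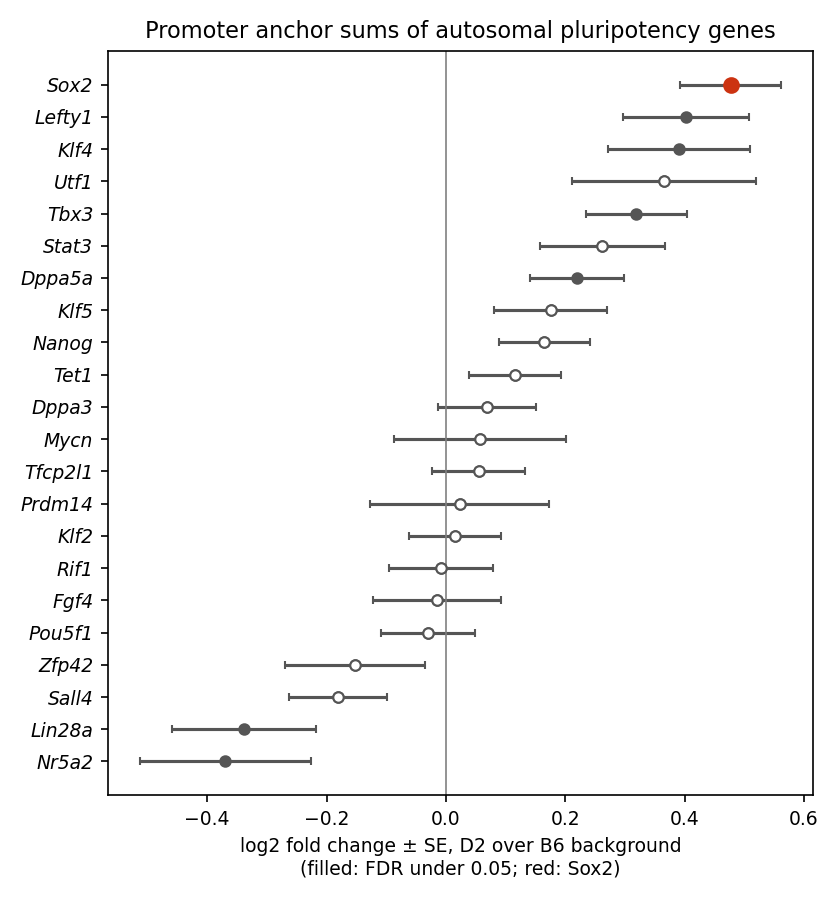
Log2 fold change (D2 over B6 background, with its standard error, horizontal axis) of the anchor at the start of each autosomal pluripotency gene of the list, with filled points for an FDR under 0.05 and Sox2 in red. Sox2, at 0.48, stands at the top of the genes plotted, and Pou5f1 lies at -0.03.

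In the other comparisons, D2 against B6 called 2 genes of the list higher and 2 lower in edgeR (11.8% of all anchors called). DESeq2 called 1, Sox2, and of all 21211 anchors 418 higher and 437 lower. D2 against D2-13B6 called 4 in either tool, all lower in D2 (5.73% of all anchors in edgeR, and 39 anchors higher and 504 lower in DESeq2). B6-13D2 against B6 (5.27% of all anchors) called 0 in edgeR and 0 in DESeq2, with 4 at an unadjusted p under 0.05. DESeq2 gave no adjusted p for 6 of the 24 genes there, which it could not call. The interval effect called 0 in DESeq2, which gave no adjusted p for 2 of the 24. It called 2 in edgeR (6.16% of all anchors in edgeR), both lower with the D2 interval. They were Sall4, a zinc-finger factor of the network, at -0.25 (edgeR's FDR = 0.0477) and Dppa5a at -0.25 (edgeR's FDR = 0.0420). The interaction called 4 in either tool (4.83% of all anchors in edgeR), all negative, which were Sox2, Pou5f1, Tet1 and Dppa5a, and with library totals alone it called 1. For the interaction DESeq2 called 16 of all anchors higher and 571 lower, and gave no adjusted p for 9 of the 24.

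For each gene of the list, the loop from its anchor to the partner with the most counts was also followed. For Pou5f1 that partner lay 50 kb away and took 48.6% of outward counts, for Nanog 55 kb and 35.2%, for Klf4 65 kb and 38.2%, and for Tbx3 75 kb and 55.4%. For Sox2 it was the distal anchor, 92.5 kb away from centre to centre, with 62.3%. These shares depend on the widths of the anchors. Between backgrounds, 4 of the 23 loops that were tested rose and 1 fell, where 8.85% of all tested loops were called and 4.30% called higher. Those that rose included the loops of Sox2, Tbx3 (0.39, edgeR's FDR = 0.00578) and Utf1 (1.41, edgeR's FDR = 0.00619), and that of Nr5a2 fell (-0.74, edgeR's FDR = 0.0384). The loops of Pou5f1, at 0.05 (edgeR's FDR = 0.822), Nanog, at 0.27 (edgeR's FDR = 0.0541), and Klf4, at 0.35 (edgeR's FDR = 0.269), were not called.

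Of 8415 anchors with a coding start elsewhere, 3 followed the Sox2 promoter anchor most closely over the 8 libraries. They were those of Fermt2 on chr14:45525001-45545000 (Pearson's r = 0.984), Nrde2 on chr12:100155001-100170000 (r = 0.981) and Mgat1 on chr11:49240001-49255000 (r = 0.978). The 95th percentile of r over these anchors was 0.823, and all values share the 8 libraries and their scaling. The Fermt2 anchor had 138.2 and 130.3 CPM of anchor counts in B6 and 169.2 and 176.6 in its congenic B6-13D2, and 211.5 and 207.3 in D2 and 223.4 and 245.3 in its congenic D2-13B6. That its lines stood in the order seen at Sox2 follows from how it was chosen. Mgat1 lies on chromosome 11, which held more of the counts in D2-13B6 than in the other lines, and the part of this in its r was not tested.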

How the data were processed

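The members and the gene lists were chosen with earlier results of these data known. The deposited values were whole-number counts of read pairs per loop, not normalized, in 1 table for all libraries, and counts per pair of 5-kb bins in 1 file per library, whose listed bins start 10 kb to 2 Mb apart. The submitters' processing notes name the build mm10 and the tools BWA 0.7.18, SAMtools 1.19.2 and edgeR 3.34.1, with no role; the loop caller is not given in the sources used here. The build is that of C57BL/6J, and how sequence differences of DBA/2J affect the counts was not tested. The number of anchors past an end of a GRCm38 chromosome was 0. Gene starts are GENCODE's, and sequences RefSeq's (the Sox2 promoter matched by symbol). For list and marker genes, only the start of the coding transcript with the longest genomic span was used.

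The filter kept 44706 loops (5 or more counts in 2 or more libraries) and 21211 anchor sums (10 or more counts in 2 or more). edgeR 4.0.16 (R 4.3.3) was fitted to all 8 libraries together, with TMM factors and a mean for each line, and its quasi-likelihood F test was used. Benjamini-Hochberg adjustment ran over all tested loops or anchors. The fit was tested on simulated data with known fold changes. Shares and window counts were compared with exact permutation tests (scipy 1.17.1), and exact (Clopper-Pearson) 95% intervals cover counting error only, since the counts carry no molecular identifiers. Library totals ran from 737955 to 1425304 counts. Alternatives were RLE factors, library totals alone, a scaling factor per chromosome, no filter, DESeq2 1.42.0, the replicate number as a block, each library left out, and, chosen after seeing the data, chromosome 11 or both D2-13B6 libraries left out. The text names the loops between promoter and distal anchor and inside each anchor, the 5 other loops with most counts, called loops, 3 anchors most like the Sox2 anchor over the libraries, list genes called in a printed comparison, and Pou5f1, Nanog, Klf4 and Esrrb; the other bins, loops and anchors named were chosen after their values were seen. One gene of the list is counted but not reported by name here.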

Additional observations from a re-analysis of the deposited data

Results flagged for a closer look

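The interval effect differed between backgrounds, tested as an interaction in edgeR, for the contacts inside the distal anchor (log2 fold change -0.75) and for the summed counts of the promoter (-0.58), middle (-0.81) and distal (-0.75) anchors. Among the other pluripotency genes it did so at Pou5f1 (-0.59), Tet1 (-0.56) and Dppa5a (-0.82). A negative value means that the 2 congenic lines together had higher log2 levels than the 2 parental lines. The congenic libraries also had the higher totals, with 982278 to 1425304 counts against 737955 to 952040, and the part of library totals in these values was not tested.

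In groups of 4 libraries that share a background or an interval allele, 5 of 44 had 1 library apart by Dixon's criterion at the 95% level, and chance gives about 1 in 20. In the B6 background, B6-13D2 replicate 2 was high for the loop from promoter to distal, with 194.6 CPM against 168.6 to 170.7 and a gap of 0.919 of the range. B6 replicate 1 was low inside the promoter anchor, with 54.9 CPM against 88.2 to 90.5 (0.935). With the D2 interval, D2 replicate 2 was high inside the middle anchor, with 69.9 CPM against 34.5 to 38.0 (0.900). In the sparse loop to the Fxr1 anchor, D2 replicate 1, with 21.5 CPM, was high among libraries with the D2 interval (0.859), and D2-13B6 replicate 1, with 24.1 CPM, among those with the B6 interval (0.833).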

How the results depend on the processing

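The number of loops called between backgrounds was 5, and 3 with DESeq2 and 3 to 5 with single libraries left out (3 without B6 replicate 1 or D2 replicate 2). In D2 against B6 it was 4, and 1 without a filter on low counts, 1 with DESeq2 and 2 to 4 with single libraries left out. The interaction called 1 loop, 0 with RLE factors, with library totals alone or with the replicate block, 2 without a filter, and 0 to 1 with single libraries left out. The summed counts of the promoter anchor kept their call between backgrounds under every alternative run, at 0.44 to 0.53 with single libraries left out. In D2 against B6 they gave 0.47 to 0.56, and the call was lost without D2 replicate 1. Their interaction was -0.35 with library totals alone and -0.57 with the replicate block, neither of them called, and -0.67 to -0.48 with single libraries left out. Library totals alone moved the median interaction of all anchors from 0.02 to 0.25, and relative to that median the value hardly differed. Their interval effect was 0.04, and ran from -0.0079 to 0.084 with single libraries left out.

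The share joining the distal anchor differed between backgrounds by -0.043 points, by 0.35 with 5-kb bin pairs, and by -1.09 to 1.56 with single libraries left out. Window counts differed by interval allele by 12.7 CPM (means of 653.8 and 641.1) and by -159.6 in CPM of chromosome 3 counts (means of 14801 and 14961), both small beside those means, and by -43.8 to 76.2 with single libraries left out. The background value of the promoter's loop spanning 227.5 kb ran from -0.051 to 0.34 with single libraries left out. With library totals alone the pluripotency list had 1 call in B6-13D2 against B6, 2 in D2 against D2-13B6 and 1 in the interaction. Leaving out chromosome 11 did not alter the number of Sox2 loops called in any of the 6 comparisons, and leaving out both D2-13B6 libraries, run for D2 and B6-13D2 against B6, gave 4 and 0 as before. The replicate numbers did not pair the samples: deviations of same-numbered libraries from their line means correlated at -0.044 to 0.0067, and with the block the loops called between backgrounds were 5 and those in D2 against B6 4. The tested loops beyond the window had 45 to 107 counts over all libraries, and whether depth limited their calls was not tested.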
